A study of Mus musculus with 70 samples.

Results

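Cells recovered from kidney tumours (KPT) were compared with cells recovered from lung metastases after kidney implantation (K-LM), both at passage 4 (P4) of serial growth in mice. Samples were chosen by their titles alone, which gave 3 KPT and 3 K-LM samples, numbered 1, 3 and 5 in both groups, among the 70 arrays of the series. All were derived from RENCA, a mouse renal adenocarcinoma line that here carried GFP, and had been implanted under the capsule of the left kidney of wild-type female BALB/c mice. The study's methods name no gene deletion and no drug treatment in either group. In the KPT route, the tumour in the kidney was explanted and its cells went back under the kidney capsule. In the K-LM route, the cells that went back were those of the lung metastases, so that the routes were carried forward separately. A K-LM sample is therefore not known to be the metastasis of the KPT tumour that bears the same number. The parental line before passage (P0, 2 arrays), the same routes at P2, P3, P5 and P6, and lung metastases after tail-vein injection at P4 (T-LM, 4 arrays) served as references. Later passages grew from earlier cells of the same route, so that P5 and P6 were other samples of these routes and not new lineages. The labels name tumour and metastasis tissue as the source and describe a tissue homogeniser, whereas the series' design and the study's methods describe explants cultured until tumour cells had been purified, and which of these was hybridised is not settled by these sources.

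Only 10 named genes passed the test, and all were higher in K-LM. They were 3 serum amyloid A genes (Saa1, Saa2 and Saa3), 2 genes of the Serpina3 cluster (Serpina3i and Serpina3f), the matrix protease gene Mmp3, and 4 genes of secreted signals (Grem1, Rspo3, Penk and Sema3c). Serum amyloid A and the Serpina3 serine protease inhibitors belong to the acute-phase response, in which IL-6 and IL-1 act through STAT3, C/EBP and NF-kB factors to raise secreted defence proteins, best known from the liver. Stromelysin-1, the product of Mmp3, degrades proteoglycans, fibronectin and basement membrane collagen outside the cell and activates other matrix proteases. Gremlin-1 (Grem1) binds and blocks bone morphogenetic proteins, R-spondin-3 (Rspo3) strengthens Wnt signals, proenkephalin (Penk) is the precursor of enkephalin peptides, and semaphorin 3C (Sema3c) guides axons and migrating cells.

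The promoters of 5 of these genes are shown because the acute-phase genes and Mmp3 rose together and the factors named above have short, well-known binding motifs. The promoters of Serpina3f, Grem1 and Sema3c were searched too and are described without their sequences. The sequences are RefSeq's for assembly GRCm38.p6, each 300 bases long, most of them upstream of the start of the gene, and read 5′ to 3′ on the gene's own strand. Saa1 lies at chr7:46742931-46743230 on the minus strand, Saa2 at chr7:46751583-46751882 on the plus strand, Saa3 at chr7:46715627-46715926 on the minus strand, Serpina3i at chr12:104262872-104263171 on the plus strand and Mmp3 at chr9:7445572-7445871 on the plus strand. Capitals mark matches to a C/EBP motif, the AP-1 motif, a STAT motif, the NF-kB motif or the TATA box on either strand.
Saa1: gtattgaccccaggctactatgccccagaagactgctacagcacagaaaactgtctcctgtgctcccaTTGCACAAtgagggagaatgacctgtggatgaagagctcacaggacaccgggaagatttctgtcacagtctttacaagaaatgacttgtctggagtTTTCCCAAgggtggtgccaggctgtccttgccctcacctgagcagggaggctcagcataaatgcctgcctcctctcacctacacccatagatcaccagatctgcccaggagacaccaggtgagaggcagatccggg
Saa2: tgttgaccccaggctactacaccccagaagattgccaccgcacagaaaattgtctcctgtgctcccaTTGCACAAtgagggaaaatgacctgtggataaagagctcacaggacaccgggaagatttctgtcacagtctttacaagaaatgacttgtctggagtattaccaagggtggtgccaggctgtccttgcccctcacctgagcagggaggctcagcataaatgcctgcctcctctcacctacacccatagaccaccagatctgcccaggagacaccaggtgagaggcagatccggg
Saa3: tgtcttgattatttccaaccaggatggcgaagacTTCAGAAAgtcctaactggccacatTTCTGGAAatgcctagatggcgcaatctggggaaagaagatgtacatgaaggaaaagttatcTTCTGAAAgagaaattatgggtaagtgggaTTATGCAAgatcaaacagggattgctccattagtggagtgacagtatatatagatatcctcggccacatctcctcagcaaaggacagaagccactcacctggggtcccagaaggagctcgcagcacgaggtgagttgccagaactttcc
Serpina3i: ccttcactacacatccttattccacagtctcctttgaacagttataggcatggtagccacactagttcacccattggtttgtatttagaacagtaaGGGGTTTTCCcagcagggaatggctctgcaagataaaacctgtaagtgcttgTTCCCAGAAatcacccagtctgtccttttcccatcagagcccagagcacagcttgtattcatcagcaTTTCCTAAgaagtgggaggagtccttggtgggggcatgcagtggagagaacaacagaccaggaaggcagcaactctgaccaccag
Mmp3: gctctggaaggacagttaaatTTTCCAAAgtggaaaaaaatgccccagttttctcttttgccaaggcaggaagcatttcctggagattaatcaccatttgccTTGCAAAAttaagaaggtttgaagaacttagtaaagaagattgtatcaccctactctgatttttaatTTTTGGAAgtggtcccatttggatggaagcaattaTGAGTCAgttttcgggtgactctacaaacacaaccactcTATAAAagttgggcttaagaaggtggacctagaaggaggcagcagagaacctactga

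A C/EBP half-palindrome (TTNNGNAA) occurred 2 times in the Saa1 promoter, 1 time in Saa2, 4 times in Saa3, 1 time in Serpina3i and 3 times in Mmp3. The same letters were present in 40.7% of all 32851 RefSeq promoters searched, so that their presence is common. An AP-1 motif (TGANTCA), present in 7.81% of promoters, was found in Mmp3 alone among the 5, with its first base at position -46 from the gene start. A STAT motif (TTCNNNGAA), present in 8.3%, was found in Serpina3i at position -102, and the NF-kB motif, present in 5.8%, in the same promoter at position -154. The letters of the TATA box (TATAAA), present in 13.6%, were found in Mmp3 at position -7. The Serpina3f promoter held 3 C/EBP matches and 1 STAT match. It also held the letters of the TATA box on the opposite strand (TTTATA), at position -186. It was 69.4% identical to that of Serpina3i, whereas Grem1 and Sema3c had no match to any of the 5 motifs. The Saa1 and Saa2 promoters were 95.3% identical in a global alignment, whereas Saa3 shared 55.9% with Saa1. The Saa1 promoter held a second C/EBP match, at position -86, at which the letters of Saa2 had no match. These are matches of letters and were not measured as bound sites.

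Levels are given on the log2 scale, as the scanner's processed signal relative to the array's own 75th percentile, taken over the 11289 probes well above background on all 70 arrays, so that 0 is as bright as that percentile and each unit is a doubling. On the 6 P4 arrays 31.6% to 35.9% of probes were well above background, with the lowest share on K-LM replicate 1. That array was also the dimmest, with a 75th percentile of 8604 against 10430 to 13589 on the others. Pearson correlations across 16413 probes, which are not independent replicates, were 0.965 to 0.980 within KPT, 0.942 to 0.966 within K-LM and 0.933 to 0.979 between the groups, so that K-LM replicate 1 correlated more with the KPT arrays (0.969 to 0.979) than with the other K-LM arrays (0.942 and 0.956). Limma tested 20363 probes and called 11 at an adjusted p of 0.01 or less, which is 0.054% of those tested. Of these, 10 were higher in K-LM (0.0491%) and 1 was lower (0.00491%), 2321 probes had an unadjusted p under 0.05, and the median difference of all tested probes was -0.04. The count rested on single arrays: it was 592 without K-LM replicate 1, 5 without K-LM replicate 3, 1 without K-LM replicate 5, 6 without KPT replicate 1, 4 without KPT replicate 3 and 40 without KPT replicate 5. With the 6 arrays alone in the fit it was 0 (931 probes at an unadjusted p under 0.05). The 11 called probes were tested in that fit too. Their direction could not change, because the group means were the same. Nothing in the labels says that samples of a group came from separate mice. The p-values rest on a spread between samples that was pooled over the 32 arrays of 10 groups in the fit. It is not the spread of the 6 P4 arrays alone. Single groups could be more spread, as in Mmp3, with an SD of 2.32 in K-LM P4 and 0.23 in KPT P4. Fewer cells of a type and less RNA per cell cannot be told apart in these bulk samples.

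The serum amyloid A genes stood higher in every K-LM array than in any KPT array. Saa3, a form expressed by many tissues outside the liver, had levels of -1.20, -2.33 and -3.68 in KPT replicates 1, 3 and 5 and of 1.40, 2.57 and 3.69 in K-LM replicates 1, 3 and 5. The lowest K-LM array was 2.60 above the highest KPT array. The difference was 4.96 ± 0.77 (SE, n = 3 and 3, limma adjusted p = 0.00296), or 31-fold. Saa1, which encodes a major circulating acute-phase protein, had levels of -3.15, -4.01 and -4.75 in KPT and of -1.19, 0.44 and 1.62 in K-LM. The difference in Saa1 was 4.26 ± 0.60 (SE, limma adjusted p = 0.00109), or 19.2-fold. Both genes were well above background on all 6 arrays, and in both of them the order of the replicates was 1, 3, 5 downwards in KPT and upwards in K-LM, in which the numbers carry no order. Saa2, the near copy of Saa1, had levels of -8.29, -8.95 and -8.69 in KPT, where no array was above background, and of -6.25, -4.89 and -6.29 in K-LM, where 2 of 3 arrays were. It was at least 2.04-fold higher in K-LM, where the dim group is set to the lowest signal that passes background on each array (fitted difference 2.83 ± 0.46, SE, limma adjusted p = 0.00466). Because the transcripts of Saa1 and Saa2 are close copies, signal may be shared between their probes. The Saa3 call ended without K-LM replicate 3, K-LM replicate 5, KPT replicate 3 or KPT replicate 5 (4.95, 4.39, 4.99 and 4.32, limma adjusted p = 0.0152, 0.0302, 0.0271 and 0.0108), and the Saa1 call without K-LM replicate 5 alone (3.60, adjusted p = 0.0133). Saa2 did not pass without KPT replicate 1 or 3 (adjusted p = 0.0114 and 0.0438) and was not tested without K-LM replicate 3 or 5.

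**Figure D1:**
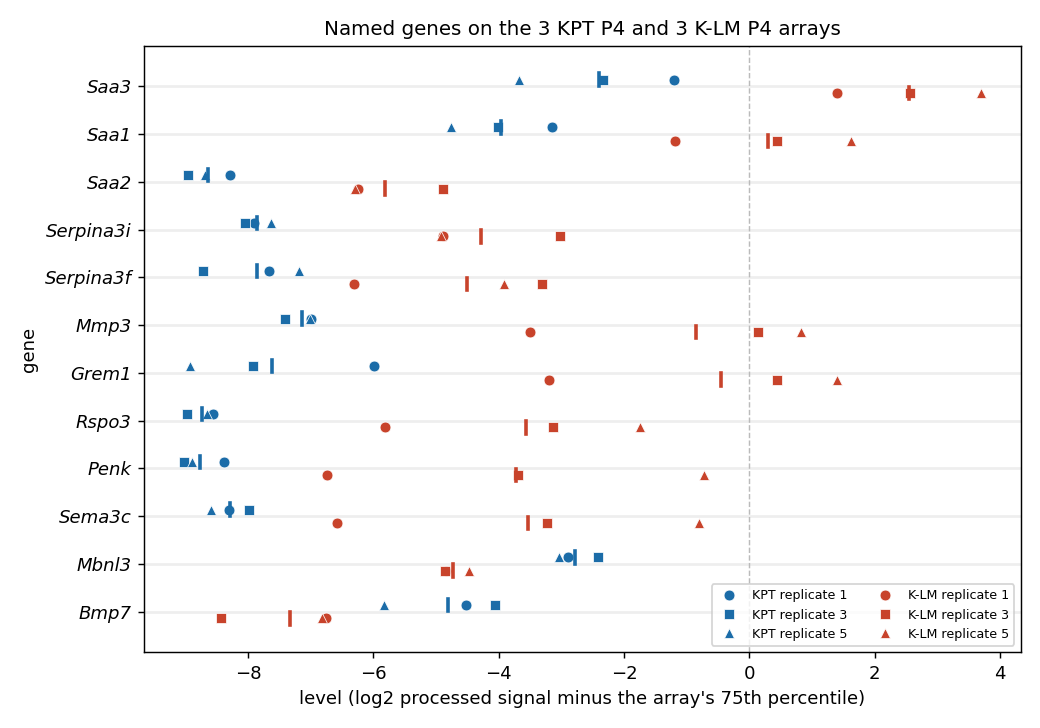
Levels (log2 relative to the array's 75th percentile) of the 10 called genes, Mbnl3 and Bmp7 on the 3 KPT P4 arrays in blue and the 3 K-LM P4 arrays in red, with marks for replicates and vertical bars for group means. In every gene drawn the 3 blue and 3 red marks do not overlap, and in Mmp3, Grem1, Rspo3, Penk and Sema3c the K-LM replicate 1 circle lies nearest to KPT; the K-LM replicate 1 mark of Mbnl3 is hidden by that of replicate 3.

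In the Serpina3 cluster Serpina3i and Serpina3f rose as well, each by 1 of its 2 probes. The called Serpina3i probe had levels of -7.90, -8.04 and -7.63 in KPT and of -4.89, -3.02 and -4.92 in K-LM. For this probe all 3 K-LM arrays were above background and no KPT array was. By this probe the gene was at least 5.89-fold higher in K-LM (fitted difference 3.58 ± 0.47, SE, limma adjusted p = 0.000843), and this was the only call that held when any single P4 array was left out. A second Serpina3i probe was above background on 2 KPT arrays, with levels of -6.26, -8.18 and -4.93 in KPT and of -3.96, -2.24 and -2.12 in K-LM, and differed by 3.68 with a limma adjusted p of 0.0188, short of the threshold. Serpina3f had levels of -7.67, -8.72 and -7.19 in KPT and of -6.31, -3.31 and -3.92 in K-LM, so that K-LM replicate 1, which did not pass background, came within 0.88 of the highest KPT array. It was at least 5.01-fold higher in K-LM (fitted difference 3.35 ± 0.50, SE, limma adjusted p = 0.00245), and its other probe gave 3.26 with an adjusted p of 0.0539. Without KPT replicate 3 the Serpina3f difference was 2.92 and did not pass (limma adjusted p = 0.0375), and without K-LM replicate 3 or 5 it was not tested. Serpina3h, another member, was above background on all 6 arrays, at -5.87, -6.61 and -5.67 in KPT and -5.03, -2.84 and -3.15 in K-LM, and did not pass (limma adjusted p = 0.0155). The mouse Serpina3 cluster holds many similar copies, so that the member a probe reports is uncertain. Serpina3n, the most widely expressed member, was above background only in K-LM replicates 3 and 5, at -5.23 and -5.32, against -8.38 in K-LM replicate 1 and -8.83, -8.86 and -8.30 in KPT, and did not pass (limma adjusted p = 0.0393).

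Mmp3 was under background throughout KPT and well above it throughout K-LM. Its levels were -7.00, -7.41 and -7.01 in KPT replicates 1, 3 and 5 and -3.504, 0.13 and 0.82 in K-LM. The difference between the lowest K-LM and the highest KPT array was 3.496, larger than the range of the KPT arrays but smaller than that of the K-LM arrays. Mmp3 was at least 63.3-fold higher in K-LM (fitted difference 6.29 ± 0.85, SE, limma adjusted p = 0.000843). Among the 24 tested members of a list of matrix proteases and their inhibitors, Mmp3 was the 1 member called (0.0491% of all tested probes were called higher). The collagenase genes Mmp13 and Mmp8 differed by 2.28 ± 0.87 and 2.57 ± 1.26, the membrane-bound Mmp14 by 1.38 ± 0.95, the gelatinase Mmp9 by -0.24 ± 0.91 and the macrophage elastase Mmp12 by -2.67 ± 1.16 (SE), and none of these passed (limma adjusted p from 0.279 to 0.974). Plau and Plaur, the urokinase and its receptor, differed by -0.08 and -0.09. Timp1, an inhibitor of these proteases, differed by 1.31 ± 0.66 (SE, limma adjusted p = 0.459). Without K-LM replicate 5 the Mmp3 difference was 5.45 and no longer passed (limma adjusted p = 0.0105).

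The 4 genes of secreted signals shared one order within K-LM, with replicate 1 lowest and replicate 5 highest. Grem1 had levels of -5.99, -7.92 and -8.93 in KPT, of which replicate 1 alone was above background, and of -3.20, 0.44 and 1.39 in K-LM. The difference was 7.16 ± 1.103 (SE, limma adjusted p = 0.00296), or 143-fold between group means. KPT replicates 3 and 5 were under background, so this fold rests in part on signal below it. No least fold was computed for Grem1, because KPT replicate 1 passed background. Rspo3 was under background in KPT, at -8.55, -8.98 and -8.65, and above it in K-LM, at -5.82, -3.13 and -1.75, at least 9.65-fold higher (fitted difference 5.16 ± 0.85, SE, limma adjusted p = 0.00536). In Penk and Sema3c K-LM replicate 1 did not pass background, so that the calls rest on K-LM replicates 3 and 5. Penk had levels of -8.38, -9.02 and -8.90 in KPT and of -6.74, -3.70 and -0.73 in K-LM and was at least 8.66-fold higher (fitted difference 5.04 ± 0.84, SE, limma adjusted p = 0.00536). Sema3c had levels of -8.30, -7.98 and -8.60 in KPT and of -6.57, -3.22 and -0.81 in K-LM and was at least 9.86-fold higher (fitted difference 4.76 ± 0.81, SE, limma adjusted p = 0.0067), whereas its other probe differed by 2.55 and did not pass (adjusted p = 0.018). Without KPT replicate 3 none of these 4 passed (limma adjusted p = 0.0295 for Grem1, 0.0438 for Rspo3, 0.0452 for Penk and 0.0409 for Sema3c). Without K-LM replicate 5, Grem1 and Rspo3 differed by 6.24 and 4.25 with adjusted p of 0.0301 and 0.0497, and without K-LM replicate 3 by 6.71 and 4.94 with adjusted p of 0.022 and 0.0312, whereas Penk and Sema3c then had too few arrays above background to be tested. Rspo3, Penk and Sema3c did not pass without KPT replicate 1 either (limma adjusted p = 0.0244, 0.0221 and 0.0334), nor Penk and Sema3c without KPT replicate 5 (0.0108 and 0.0156).

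On the lower side in K-LM 1 probe passed, and it has no gene name here. The probe, A_30_P01020760, had levels of -6.59, -6.78 and -7.14 in KPT, where 2 of 3 arrays were above background, and of -8.54, -8.18 and -8.60 in K-LM, where none was. It differed by -1.60 ± 0.27 (SE, limma adjusted p = 0.00536). With K-LM set to the lowest signal that passes background on each array, no fall remained, so no least fold can be given. The probe was not tested at P5 or P6. The named probes nearest to the threshold on that side were those of Mbnl3 and Bmp7. Mbnl3, an RNA-binding regulator of splicing, had levels of -2.90, -2.41 and -3.05 in KPT and of -4.85, -4.86 and -4.48 in K-LM, a difference of -1.94 ± 0.34 (SE) whose limma adjusted p was just above 0.01. Bmp7, a bone morphogenetic protein needed for kidney development, had levels of -4.53, -4.06 and -5.83 in KPT and of -6.76, -8.43 and -6.82 in K-LM, where no array was above background. It was at least 3.56-fold lower in K-LM, with a fitted difference of -2.53 ± 0.45 (SE) and a limma adjusted p of 0.011. The 3 KPT and 3 K-LM values of both genes did not overlap, which their choice by a small p on the same arrays favours.

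At an adjusted p of 0.05 or less limma called 125 probes (0.614% of those tested), 86 higher (0.422%) and 39 lower (0.192%) in K-LM. The groups did not overlap in 113 of them, but selection by a small p on these same arrays favours such probes. K-LM replicate 1 lay below both other K-LM arrays in 76 of the 86 higher probes, and it was not above background in 51 of them. The shares of these patterns over all tested probes were not counted. Of the same 86 probes 53 were under background on all 3 KPT arrays. Of the 39 lower probes 32 were above background on all KPT arrays. The following genes passed at 0.05 only, and those not in the gene lists were chosen after their values were seen. Wfdc2, an epithelial secreted protein also known as HE4, had levels of -0.70, -1.65 and -0.53 in KPT and of -0.13, 1.65 and 1.497 in K-LM (limma adjusted p = 0.0146). Fgf10, a growth factor of lung and limb mesenchyme, had levels of -8.37, -3.85 and -2.78 in K-LM and was under background in KPT, at -8.75, -9.03 and -8.79 (limma adjusted p = 0.018). On the lower side, Cysltr1, a leukotriene receptor, had levels of -4.29, -4.77 and -3.41 in KPT and was under background in K-LM, at -6.24, -7.33 and -7.36 (limma adjusted p = 0.0213). Fcgr2b, an inhibitory Fc receptor of leukocytes, had levels of -2.72, -2.31 and -5.97 in KPT and of -6.44, -5.95 and -7.51 in K-LM (limma adjusted p = 0.0375), and Myl1, a muscle myosin light chain, had -2.64, -2.03 and -3.37 in KPT and -3.27, -6.96 and -8.27 in K-LM (limma adjusted p = 0.0345). In Fcgr2b and Myl1 the groups overlapped by 1 array each.

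In the list of acute-phase genes 3 of 15 tested members were called (0.0491% of all tested probes were called higher), all of them serum amyloid A genes, and 13 of 15 differences were positive, with a median of 1.49 against -0.04 for all tested probes. Each gene of a list is represented by its brightest probe, so Serpina3i counts there with the probe that did not pass. Here and in the lists below, members were read on the same P4 arrays and are not independent. Counts of positive or negative differences are thus a description and not a test. The share of positive differences over all tested probes was not counted. Lcn2, which encodes the iron-binding protein lipocalin-2, had levels of 2.16, 1.65 and 2.48 in KPT and of 3.89, 3.98 and 3.68 in K-LM (difference 1.76 ± 0.44, SE, limma adjusted p = 0.0657). The groups of Lcn2 did not overlap, but the difference did not pass. Haptoglobin (Hp), orosomucoid (Orm1), Lrg1 and ceruloplasmin (Cp) differed by 2.46, 1.31, 1.27 and 0.87 (limma adjusted p from 0.224 to 0.296). Il1rn and Itih4 were the 2 members with a negative difference, -0.17 and -1.17. Among IL-6 family cytokines, receptors and STAT3 feedback genes none of 19 tested members was called, although 18 differences were positive (median 0.56). Il6 itself had levels of -2.76, -4.97 and -8.82 in KPT and of -2.82, -0.73 and 0.14 in K-LM, and K-LM replicate 1 overlapped with KPT (limma adjusted p = 0.233). The feedback inhibitor Socs3 differed by 1.13 ± 0.55 and Stat3 by 0.17 ± 0.30 (SE), and neither passed.

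Of 14 tested complement genes none was called at 0.01, and 8 differences were positive (median 0.55). The central component C3 had levels of -0.77, -0.86 and 0.01 in KPT and of 1.41, 1.11 and 1.22 in K-LM (difference 1.79 ± 0.35, SE, limma adjusted p = 0.018). Factor B (Cfb) of the alternative pathway had levels of -6.68, -6.21 and -8.71 in KPT, of which 1 was above background, and of -5.56, -1.94 and -3.56 in K-LM (difference 3.51 ± 0.73, SE, limma adjusted p = 0.0245). The protease gene C1ra had levels of -2.24, -2.57 and -2.61 in KPT and of -1.25, -1.07 and -1.54 in K-LM (difference 1.19 ± 0.26, SE, limma adjusted p = 0.0286). The groups of all 3 genes did not overlap, and none of the 3 passed the threshold of 0.01. The 3 were chosen by a small p on these same arrays, which favours groups without overlap. The share of such groups over all tested probes was not counted. C1s1, whose product forms a complex with that of C1ra, was at -8.42 and under background in K-LM replicate 1, against -0.38 and -0.96 in K-LM replicates 3 and 5 and -1.85, -1.76 and -2.30 in KPT. The C1q genes C1qa, C1qb and C1qc, which macrophages express, differed by -2.76, -1.05 and -2.62 (limma adjusted p from 0.388 to 0.644).

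None of 30 tested interferon-stimulated genes was called, 28 differences were positive (median 0.96), and Ifit3 passed at 0.05, with levels of -5.91, -4.87 and -6.47 in KPT and of -4.75, -3.55 and -1.999 in K-LM (limma adjusted p = 0.0393). None of 31 hypoxia and glycolysis genes was called, and 30 differences were positive (median 0.54). Of these, the glucose transporter Slc2a1 had levels of 1.55, 1.21 and 1.43 in KPT and of 2.63, 2.09 and 2.68 in K-LM (difference 1.07 ± 0.24, SE, limma adjusted p = 0.0322), and the vasodilator adrenomedullin (Adm) 0.43, -0.76 and -0.05 in KPT and 0.94, 1.25 and 1.51 in K-LM (difference 1.36 ± 0.27, SE, limma adjusted p = 0.0205). Both passed at 0.05 only. The transcription factor gene Hif1a differed by 1.02 ± 0.37 (limma adjusted p = 0.245), Vhl, whose product marks it for degradation, by 0.23 ± 0.24 and Epas1, the other main hypoxia factor, by 0.19 ± 0.17 (SE) at its brightest probe. Another Epas1 probe differed by 2.88 and did not pass either (limma adjusted p = 0.328), so that the probes of this gene disagree in size. None of 34 cell cycle genes was called, and 26 differences were negative (median -0.25). The mitotic cyclin gene Ccnb1 had levels of -0.29, 0.02 and -0.06 in KPT and of -1.47, -0.66 and -1.76 in K-LM (difference -1.19 ± 0.24, SE, limma adjusted p = 0.0193), whereas its other probes differed by -0.54 and -0.36 (adjusted p = 0.529 and 0.761). The proliferation marker Mki67 differed by -0.41 ± 0.45 (SE, limma adjusted p = 0.836).

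**Figure D2:**
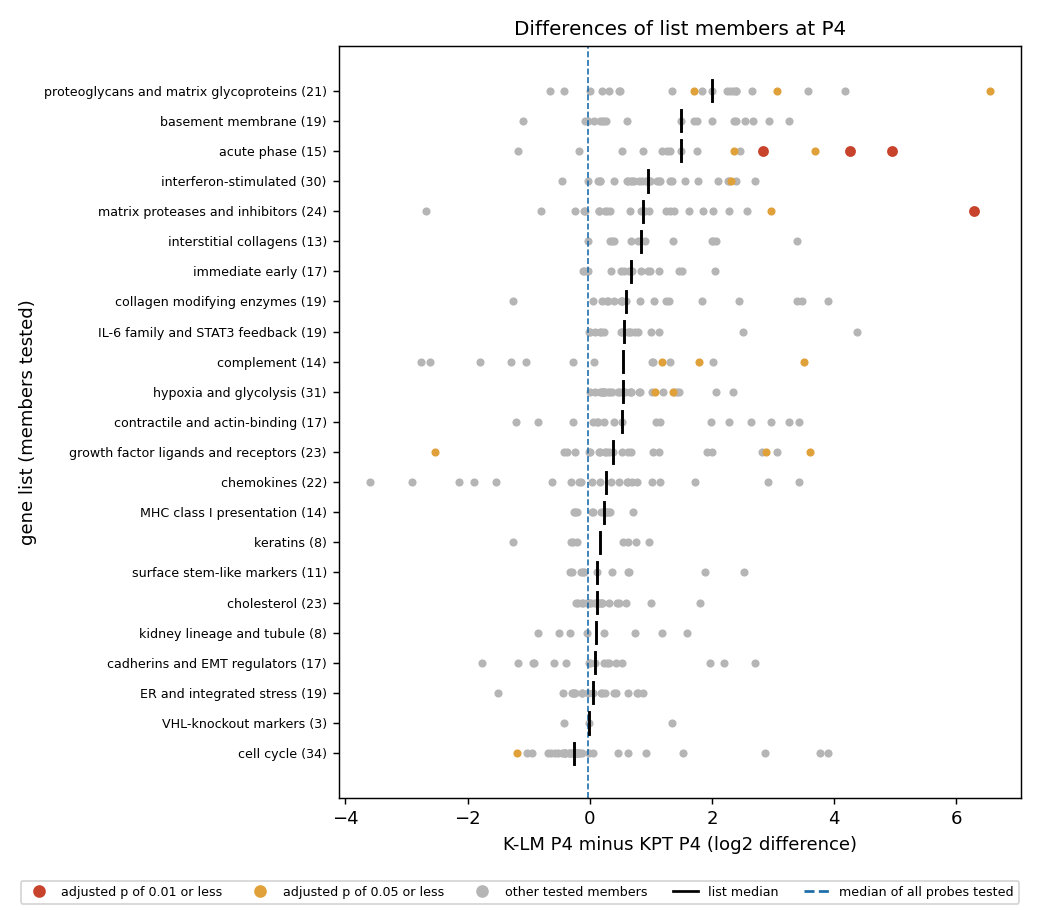
Difference K-LM P4 minus KPT P4 (log2, horizontal axis) of each tested member of 23 gene lists (vertical axis, number of tested members in brackets), with red for an adjusted p of 0.01 or less, orange for 0.05 or less, black bars for list medians and a dashed line at the median of all tested probes. Red points occur in the acute-phase list (3) and the matrix protease list (1), and the median of the acute-phase list is 1.49. The lists of cell type markers are not drawn.

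The highest values of several matrix genes lay in K-LM replicates 3 and 5. None of 21 tested proteoglycan and matrix glycoprotein genes was called, with 19 positive differences and a median of 2.01. Of this list 20, 19 and 11 members were above background in KPT replicates 1, 3 and 5 and 14, 22 and 21 in K-LM. Genes above background on K-LM replicates 3 and 5 alone entered the test by those arrays. The count of positive differences and the medians of the matrix lists are thus in part set by the filter. Matrix Gla protein (Mgp), an inhibitor of calcification, had levels of -2.43, -5.28 and -9.04 in KPT and of -2.04, 2.56 and 2.37 in K-LM (difference 6.54 ± 1.37, SE, limma adjusted p = 0.0246). Decorin (Dcn), a small proteoglycan that binds collagen, had -2.85, -1.31 and -3.43 in KPT and -2.23, 1.39 and 2.46 in K-LM (difference 3.07 ± 0.72, SE, limma adjusted p = 0.0439). The K-LM replicate 1 value of Decorin lay among the KPT values. None of 19 basement membrane genes (median 1.495) and none of 13 interstitial collagen genes (median 0.83) was called. Col1a1, the main collagen of connective tissue, had levels of -0.29, -2.89 and -8.02 in KPT and of -3.62, 0.87 and 1.73 in K-LM (difference 3.39 ± 1.75, SE, limma adjusted p = 0.47). Tbx4, a transcription factor of lung and limb mesenchyme, and Hgf, the ligand of the Met receptor, were above background only in K-LM replicates 3 and 5, at -6.08 and -4.36 and at -5.14 and -4.88, and passed at 0.05 (limma adjusted p = 0.0286 and 0.0332). The same held for Igfbp5 at -3.60 and -1.52 (limma adjusted p = 0.0499).

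No fibroblast or macrophage marker was called, but their levels varied among the arrays. The levels of 12 fibroblast markers, summed on the linear scale relative to the 75th percentile, were 11.4, 4.19 and 9.6 in KPT and 3.42, 15.1 and 22.2 in K-LM replicates 1, 3 and 5. Of these markers 7, 7 and 5 were above background in KPT and 6, 9 and 10 in K-LM, with Pdgfra, Lum and Fap above background on K-LM replicates 3 and 5 alone and Dpt and Tcf21 on no array. The sum of K-LM replicate 1 was thus the lowest of the 6, but KPT replicate 5 had the fewest of these markers above background. The summed interstitial collagens were also lowest in KPT replicate 5, at 1.29 against 1.80 in K-LM replicate 1, so that the measures disagree on the lowest array. The sum over 18 macrophage markers was 5.48, 8.61 and 3.22 in KPT and 4.23, 4.37 and 3.05 in K-LM, with 14, 14 and 9 of them above background in KPT and 12, 8 and 9 in K-LM. Tyrobp, an adaptor of myeloid receptors, had levels of -2.47, -1.57 and -8.92 in KPT and of -5.11, -8.45 and -7.75 in K-LM, and Fcgr1, Cd163 and Cx3cr1 were above background on none. KPT replicates 1 and 3 thus had the highest macrophage sums, and they also had the highest Fcgr2b and C1q levels among the 6 arrays. The part of fibroblasts and macrophages in the differences was not tested. Without both K-LM replicates 3 and 5, a fit chosen after the data were seen, 1 K-LM array was left and 4 of the 11 called probes were tested. All 4 kept their direction, which could not change because their groups did not overlap. The differences of Saa3, Saa1 and Grem1 were 3.80, 2.78 and 4.42. Without both KPT replicates 1 and 3, also chosen later, the differences of Saa3, Saa1, Mmp3 and Grem1 were 6.23, 5.04, 6.16 and 8.48, and none passed with 1 KPT array left, whose spread was taken from the other groups (limma adjusted p from 0.0109 to 0.0368).

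Markers of lung epithelium and of endothelium were in part above background. Of 13 lung epithelial markers 11, among them the surfactant genes Sftpa1, Sftpb, Sftpc and Sftpd, the lung transcription factor Nkx2-1 and Scgb3a1 and Scgb3a2, were above background on none of the 6 arrays, whereas Lamp3 was on all 6 and Scgb1a1 on 5. Of 12 endothelial markers 7 (Pecam1, Cdh5, Tek, Tie1, Emcn, Cldn5 and Erg) were above background on none, whereas Kdr, Esam and Egfl7 were on all 6. Of 8 markers chosen for the renal carcinoma line, Krt8, Krt18, Krt19, Pax8 and Vim were above background on all 6 arrays and Cdh16 on 5, but Pax2 and Epcam on none. Krt18, a keratin of simple epithelia, had levels of 3.97, 3.64 and 3.51 in KPT and of 3.53, 3.28 and 3.37 in K-LM, and Pax8, a kidney lineage factor, -2.01, -1.31 and -3.17 in KPT and -1.66, -2.48 and -3.34 in K-LM. An index of RNA quality, the mean level of long mRNAs minus that of ribosomal protein mRNAs, was -7.93, -7.73 and -7.99 in KPT and -7.76, -8.08 and -8.18 in K-LM, so that the groups overlapped.

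**Figure D3:**
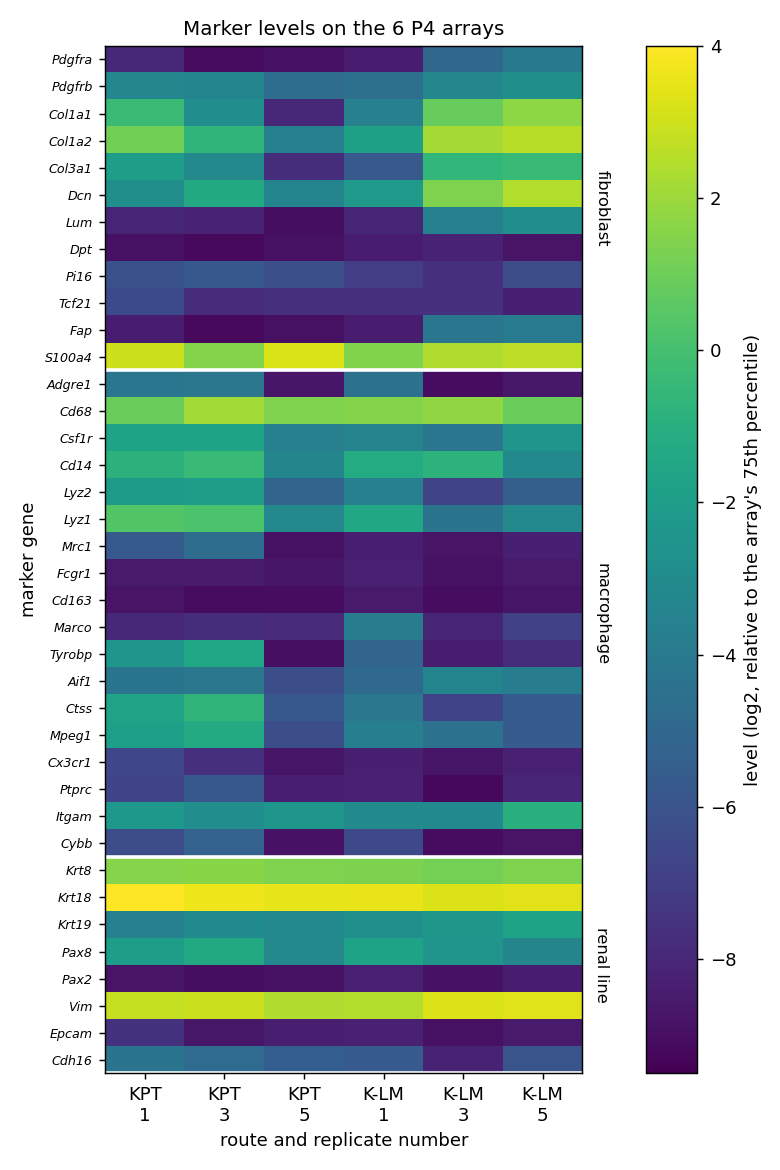
Levels (log2 relative to the array's 75th percentile, colour scale) of fibroblast, macrophage and renal line markers (rows) on the 6 P4 arrays (columns, route and replicate number). Fap, Lum and Pdgfra are bright on K-LM replicates 3 and 5 alone, several macrophage genes such as Tyrobp (-2.47 and -1.57) are brightest on KPT replicates 1 and 3, and Krt8 and Krt18 are above background on all 6 arrays.

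Genes raised in the study, or in earlier results of these data in the case of Krt20, were set beside these. Among its marker genes of VHL loss, Tnfsf13b had levels of -3.35, -3.10 and -3.32 in KPT and of -5.10, -3.20 and -2.73 in K-LM (difference -0.42 ± 0.35, SE), and Ppef1 -2.19, -1.21 and -3.09 in KPT and -2.49, -1.56 and -2.50 in K-LM (difference -0.02 ± 0.33, SE). Postn had -4.32, -6.53 and -8.83 in KPT and -7.88, -3.97 and -3.80 in K-LM (difference 1.35 ± 1.24, SE), and Samsn1 was above background on 1 array only and was not tested. None of these passed, and their groups overlapped. The study set late against early passages of K-LM and T-LM for genes of VHL loss, and described P6 cells for Cd44, Nt5e and Aldh1a1. Here K-LM was compared with KPT at P4, so that these values are no test of the study's results. The surface markers Cd44, at its brighter probe, and Nt5e differed by 0.64 ± 0.31 and -0.14 ± 0.41, the keratin Krt20 by -0.27 ± 0.60 and the retinal dehydrogenase Aldh1a1 by 1.89 ± 0.97 (SE, limma adjusted p from 0.441 to 0.97). Of the study's K-LM signature, 2 of 14 tested genes were called, Saa1 and Saa2 (0.0491% of all tested probes were called higher), and the study chose that list on samples of this series, so it is not independent evidence. Of its KPT and T-LM signatures none of 13 and none of 19 tested genes was called.

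The same routes were then compared in samples of other passages, which share no array with P4. At P3 limma called 0 of 17912 probes (0%) in 5 K-LM against 2 KPT samples, with 479 at an unadjusted p under 0.05. Of the P4 calls 4 were tested at P3, all 4 with the same sign, and the differences were 1.62 for Serpina3i, 1.70 for Mmp3, 1.32 for Saa3 and 0.85 for Saa1. At P5, 1000 of 19082 probes passed (5.24%) between 4 K-LM and 5 KPT samples, with 519 up (2.72%) and 481 down (2.52%) in K-LM. At an adjusted p of 0.05 these shares were 6.44% and 7.87%. All 10 named genes called at P4 were tested and called at P5 in the same direction. The P5 differences were 7.09 ± 0.63 for Saa3, 5.45 ± 0.49 for Saa1, 5.36 ± 0.70 for Mmp3 and 5.12 ± 0.91 for Grem1 (SE, limma adjusted p from 8.01e-08 to 0.000613). At P6, where 3 K-LM samples were set against 3 KPT samples hybridised again on the same slide, 3032 of 20376 probes were called (14.9%), and the 10 genes were again all called higher (5.72% of all probes were, and 9.16% were called lower). The P6 differences were 5.34 ± 0.29 for Saa3, 4.17 ± 0.21 for Saa1, 3.72 ± 0.69 for Mmp3, 5.99 ± 0.55 for Grem1 and 7.13 ± 0.15 for Serpina3i (SE, limma adjusted p from 1.01e-07 to 0.00475). Bmp7 passed at both later passages (-3.59 ± 0.37 and -3.36 ± 0.50, SE, limma adjusted p = 6.6e-07 and 0.00188), and Mbnl3 passed at P5 (-1.38, adjusted p = 0.0021) but not at P6 (-0.05, adjusted p = 0.813). Of the 125 probes called at 0.05 at P4, 96 were tested at P5 and 61 of those were called in the same direction, whereas at P6 84 were tested, 59 were called in the same direction and 2 in the opposite one. The test of whether the route difference itself differed between P5 and P4 called 10 of 20940 probes (0.0478%), 6 in favour of K-LM (0.0287%) and 4 in favour of KPT (0.0191%), and none of the 10 named P4 genes was among them. The unnamed probe A_30_P01020760, the P4 call that was lower in K-LM, was among them (P5 minus P4 2.30 ± 0.35, SE, limma adjusted p = 0.00212). This value rests on signal near background, and the probe had too few arrays above background at P5 to be tested there. At an adjusted p of 0.05 the share toward KPT was 0.0716%.

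Levels over passages were compared next. In K-LM, Saa3 stood at -1.34 ± 0.66 (SD, n = 5) at P3, 2.55 ± 1.14 (SD, n = 3) at P4 and 2.80 ± 0.86 (SD, n = 4) at P5, values given as a description. In KPT it stood at -2.66 ± 0.84 (SD, n = 2), -2.40 ± 1.24 (SD, n = 3) and -4.29 ± 1.61 (SD, n = 5), against -2.69 ± 0.10 (SD, n = 2) at P0. Mmp3 stood in K-LM at -5.52 ± 0.17 (SD) at P3, -0.85 ± 2.32 (SD) at P4 and -1.70 ± 0.79 (SD) at P5, and in KPT between -7.22 and -7.06 over the same passages. The called Serpina3i probe was above background on all 5 K-LM arrays of P3 already, at -5.26 ± 0.66 (SD), and on no KPT array from P2 to P6, whereas the gene's other probe was above it on 2 KPT arrays at P4. Bmp7, by contrast, was above background on no array of P0 and of KPT P3 and on all arrays of KPT P4, P5 and P6, with -4.81 ± 0.92, -4.08 ± 0.43 and -4.43 ± 0.14 (SD, n = 3, 5 and 5). In K-LM it stood near background, at -7.01, -7.34 and -7.67 from P3 to P5. Mbnl3, under background at P0, was -2.78 ± 0.33 (SD) in KPT P4.

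**Figure D4:**
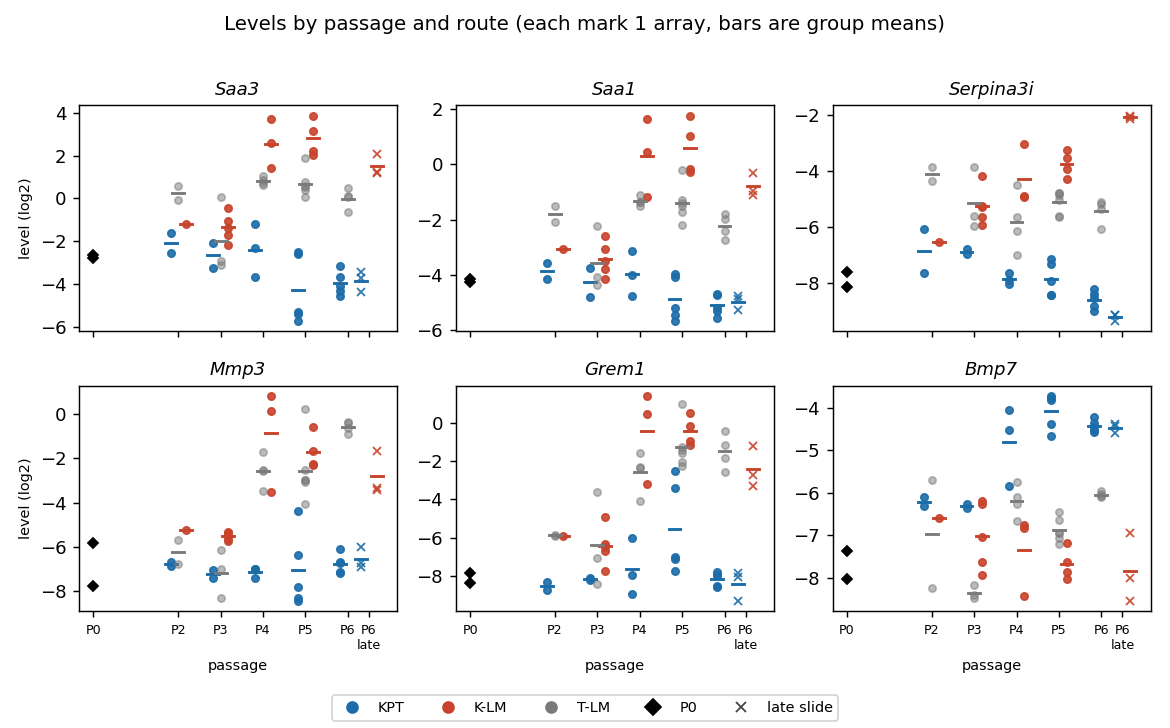
Levels (log2 relative to the array's 75th percentile, vertical axes) of 6 genes by passage (horizontal axes), each mark 1 array, with KPT in blue, K-LM in red, T-LM in grey, P0 as black diamonds, arrays of the late slide as crosses and bars for group means. The K-LM marks of Saa3, Saa1, Mmp3 and Grem1 lie above those of KPT at P4, P5 and P6, and Bmp7 shows the opposite order.

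The T-LM samples of P4, which reached the lung through the blood without a kidney tumour, lay between the other routes for most of these genes, as a description. Saa3 was 0.82 ± 0.17 (SD, n = 4) in T-LM P4, Saa1 -1.33 ± 0.17, Mmp3 -2.58 ± 0.71, Grem1 -2.58 ± 1.05, Rspo3 -4.76 ± 0.59 and Sema3c -4.91 ± 0.89 (SD). All 4 T-LM arrays were above background for these 6 genes. Saa2, Serpina3f and Penk were above background on 1 of 4 T-LM arrays each, with means of -6.83, -7.15 and -7.35. Mbnl3 in T-LM, at -6.03 ± 0.46 (SD), lay below both other routes.

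The separation of the routes was measured over all probes. Between KPT and K-LM alone, 25.4% of the summed squared distance among the 6 P4 arrays lay between routes (exact permutation test, 1-sided, p = 0.4, 20 assignments, of which the smallest possible p is 0.1). With K-LM replicate 1 left out the share was 50.4% (exact permutation p = 0.1, the smallest that design allows), whereas it was 22.9% without K-LM replicate 3 (exact permutation p = 0.6), 18.7% without K-LM replicate 5 (exact permutation p = 0.9) and 25.3% to 28.6% without a KPT replicate (exact permutation p from 0.3 to 0.4). With T-LM added as another group the share was 35.8% (exact permutation test, 1-sided, n = 10, p = 0.0205, 4200 assignments), and it no longer passed 0.05 without KPT replicate 5, K-LM replicate 5, T-LM replicate 2 or T-LM replicate 4 (exact permutation p from 0.0556 to 0.0786). The 6 P4 arrays lay on 4 slides. K-LM replicate 1 and KPT replicate 5 each lay on a slide without another of the 6. Among the 6, slide and sample cannot be told apart for these arrays. The other 2 slides held an array of each route. Within these, KPT replicate 1 met K-LM replicate 3 and KPT replicate 3 met K-LM replicate 5. All 11 called probes had the sign of the whole comparison there. No other sign was possible, because the KPT and K-LM values of these probes did not overlap. The differences were 3.77 and 6.02 for Saa3, 3.59 and 5.63 for Saa1, 7.13 and 8.22 for Mmp3 and 4.88 and 3.12 for Serpina3i.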

How the data were processed

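RNA of each sample was labelled with Cy5 and hybridised to a 1-colour Agilent mouse array. The authors deposited scanner output whose red processed signal is an intensity, with background already subtracted by Feature Extraction, and a table of log2 values deposited for the whole series, used as an alternative. Control spots (3671 of 62976) and outlier spots were left out, and repeated spots were averaged to 55681 probes, of which 28026 had a gene symbol and 27655 had none. Symbols were updated through RefSeq's table for GRCm38.p6. The design had named the green signal, but the files hold the red one, which was used.

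The log2 level was scaled to each array's 75th percentile. Probes well above background on at least 2 of the compared arrays were fitted with limma 3.58.1 in R 4.3.3 (lmFit and eBayes, 2-sided) over 32 arrays in 10 groups (22 residual degrees of freedom), and 376 probes with a missing value were dropped. P-values were adjusted by Benjamini-Hochberg over all tested probes, and probes at 0.01 or less were called. P6 was fitted on 8 arrays of the late slide alone. The number of arrays limits precision. In data simulated for the P4 comparison (20363 probes), 32% of changes of 1 log2 unit, 76% of 2 and 94% of 3 were called. The simulation gave each probe the same spread in every group and shifted all 3 K-LM arrays alike. In the data some genes were more spread in K-LM P4, such as Mmp3 (SD 2.32, against 0.23 in KPT P4). For such genes these shares may be too high. Replicate numbers were not used as pairs. Genes were named as the 12 probes with a symbol and the smallest p (too few met a stricter rule), the called members of each list (at most 4), list members at an adjusted p of 0.05 or less (added after the data were seen, and not called), and genes that the study or an earlier report had dealt with. Every other gene given a value was chosen after its values were seen. The members and lists were chosen with earlier results of these data known. Alternatives covered scaling, background correction, filters, slide, the samples in the fit and single arrays left out.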

Additional observations from a re-analysis of the deposited data

Results flagged for a closer look

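In 48 groups of 4 to 10 samples tested over the named genes, 1 sample stood apart: Sema3c in K-LM P3 replicate 4 had a level of -6.24, against -8.48 to -8.17 in the other K-LM P3 samples. Chance alone marks about 1 in 20 groups in this way.

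The difference between K-LM and KPT itself differed between P5 and P4 for 10 of 20940 probes (limma interaction, 0.0478%). It was larger at P5 for the neutrophil chemokine genes Cxcl1 (by 5.51) and Cxcl3 (by 3.63), and lower at P5 by the interaction for Scd2 (-3.39), Rorb (-2.78), Xlr4b (-2.60) and Pdp2 (-2.49), all on the log2 scale. The unnamed probes A_30_P01020760 (called lower in K-LM at P4), A_30_P01026644, A_55_P2069093 and A_55_P2176623 had values of 2.30, 2.32, 2.31 and 2.34. Of the 10 named genes called at P4 none had an interaction that passed.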

How the results depend on the processing

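Of the P4 calls, every one that could be tested kept its direction under each alternative except 1 with dim signals set to a floor. Where an alternative only left out arrays, or changed the other arrays in the fit, no other direction was possible. The K-LM and KPT values of these probes did not overlap. The count of P4 calls (11) became 125 at an adjusted p of 0.05, 17 (13 higher and 4 lower) with the 75th percentile over all probes and with the authors' log2 values, 6 with quantile normalization, 9 (6 and 3) with normexp, 2 with a filter on all arrays, 0 with the compared arrays alone, 128 with slide as a fixed block, and 1 to 592 with single arrays left out. With replicate numbers as a block it was 56, with all 11 calls among them. Deviations from the group means correlated at r from -0.22 to 0.21 for same-numbered samples and from -0.37 to 0.32 for others. With 3 arrays a group these values cannot settle whether the numbers mark pairs. Fits chosen after seeing the data gave 0 (P4 arrays of 3 routes; 1702 at an unadjusted p under 0.05), 6 (without both K-LM replicates 3 and 5) and 3 (without both KPT replicates 1 and 3). The P5 count (1000) became 2730 at 0.05, 569 with the filter on all arrays, 270 with slide fixed, 305 with the RNA index as covariate and 469 to 997 with single arrays left out. Its split became 617 and 322 with the percentile over all probes and 626 and 379 with the authors' values. The P6 count (3032) became 6364 at 0.05, 1121 with no filter on dim probes and 1270 to 2259 with single arrays left out. The count for P5 minus P4 (10) became 35 at 0.05, 17 (13 and 4) with quantile normalization, 13 (11 and 2) with the authors' values, 5 with the filter on all arrays, 6 with the floor, 0 with the compared arrays alone and with slide fixed, 5 with the index and 4 to 18 with single arrays left out. With the filter on all arrays, 1 of the P4 calls was called at P5 and 2 at P6. The between-route share over 3 routes was 34.8% to 50.8% with single arrays left out. Differences that did not pass changed sign: without both K-LM replicates 3 and 5, Epas1 was -0.015 and Postn -1.31. Tnfsf13b ranged from -0.89 to 0.30 with single arrays left out, Nt5e from -0.45 to 0.14, Ppef1 from -0.48 to 0.46 and Krt20 from -1.38 to 0.47. Without both KPT replicates 1 and 3, Ppef1 was 0.90 and Nt5e 0.50. Ppef1 was 0.012 with quantile normalization and Krt20 was 0.091 with slide fixed. The cause of these changes was not tested.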

Other observations

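Without both K-LM replicates 3 and 5, Tnfsf13b, a B cell survival factor, was called lower in K-LM (-1.84, limma adjusted p = 0.00873), with 1 K-LM array left, whose spread was taken from the other groups.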
